A study of Mus musculus with 24 samples.

Results

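Neutrophils carry antimicrobial proteins in several kinds of granule and hold large amounts of calprotectin in the cytosol. Transcripts of 9 genes of that equipment were examined across mouse thyroid tumours: S100a8, S100a9, Ngp, Camp, Ltf, Lcn2, Il1b, Csf3r and Retnlg. They were taken by name from the annotation of the array, and 8 of the 9 had a probe set, 1 each, among 12394 genes measured. Retnlg, which encodes a resistin-like protein of neutrophils, had no probe set listed and was not analysed here.

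RNA from 24 thyroid samples was read on Affymetrix Mouse430A_2 arrays. Normal tissue was represented by 6 pools of glands. The tumours comprised 4 labelled PTC (papillary, the differentiated form of thyroid cancer), 5 labelled ATC (anaplastic, the form that has lost differentiation) and 9 labelled as recurrent. The series title speaks of anaplastic tumours that resist inactivation of BRAF, a kinase of the MAPK cascade, and the part of Met and its ligand Hgf in that resistance. The glands and tumours came from mouse models, and the labels used here give no genotype, strain, age or treatment of the mice that made the tumours. Titles set the arrays in 3 kinds: 4 normal pools are titled WT, as part of a run of arrays numbered with JK, and the other 2 are titled Cre. All 4 PTC arrays, 2 of the ATC arrays and 3 of the recurrent arrays also carry JK, while 3 ATC and 6 recurrent arrays have a bare number as title. What these kinds stand for is not stated, and the labels do not say that the tumours came from separate animals, so p-values measure only the spread between these samples, which may be technical.

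Calprotectin is a complex of S100a8 and S100a9, calcium-binding proteins that also take zinc and manganese away from microbes and act on the receptors Tlr4 and Ager. The granule proteins are made in turn as a neutrophil matures in the bone marrow: primary granule proteins such as Mpo and Elane come early, and the specific granule proteins Ngp, Camp, Ltf and Lcn2 follow under factors of the C/EBP family. Mature neutrophils that have reached a tissue hold the proteins but transcribe these granule genes little, whereas S100a8, S100a9, Il1b and Csf3r stay transcribed. Ltf and Lcn2 are also made by epithelial cells of glands, and S100a8 and S100a9 by stressed squamous epithelium, so none of these is a marker of neutrophils alone. In RNA from whole tissue, fewer cells of a type and less RNA per cell cannot be told apart.

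The stretch before the start site is shown for the calprotectin pair, which lie side by side on chromosome 3, and for Ngp, Ltf and Lcn2, granule genes whose patterns across the arrays differ. Sequences are from RefSeq on GRCm38.p6, 250 bases up to the start site, 5′ to 3′ on the gene's own strand. Capitals mark matches to TTGCNNAA on either strand, letters of the C/EBP binding pattern. S100a8 is on the plus strand at chr3:90668821-90669070 and S100a9 on the minus strand at chr3:90695722-90695971. Ngp is on the plus strand at chr9:110419558-110419807, Ltf on the plus strand at chr9:111019042-111019291 and Lcn2 on the minus strand at chr2:32387740-32387989.
S100a8: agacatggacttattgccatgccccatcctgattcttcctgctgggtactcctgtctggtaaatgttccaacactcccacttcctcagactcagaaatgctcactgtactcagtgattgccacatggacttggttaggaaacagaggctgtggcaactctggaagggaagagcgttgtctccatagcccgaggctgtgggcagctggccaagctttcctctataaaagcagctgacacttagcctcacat
S100a9: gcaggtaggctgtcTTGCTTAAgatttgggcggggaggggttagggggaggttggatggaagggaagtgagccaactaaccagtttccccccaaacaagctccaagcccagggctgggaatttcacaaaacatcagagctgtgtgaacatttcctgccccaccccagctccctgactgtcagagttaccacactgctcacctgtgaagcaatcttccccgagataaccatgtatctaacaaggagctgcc
Ngp: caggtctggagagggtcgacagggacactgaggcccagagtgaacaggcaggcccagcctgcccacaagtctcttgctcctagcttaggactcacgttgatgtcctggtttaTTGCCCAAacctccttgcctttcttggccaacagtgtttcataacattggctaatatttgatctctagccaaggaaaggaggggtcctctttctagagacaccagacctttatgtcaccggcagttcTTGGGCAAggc
Ltf: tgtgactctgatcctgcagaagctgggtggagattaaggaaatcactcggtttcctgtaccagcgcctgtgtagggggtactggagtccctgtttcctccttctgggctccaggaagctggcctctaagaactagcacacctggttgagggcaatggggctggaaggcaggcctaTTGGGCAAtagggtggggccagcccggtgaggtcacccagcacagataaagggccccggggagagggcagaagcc
Lcn2: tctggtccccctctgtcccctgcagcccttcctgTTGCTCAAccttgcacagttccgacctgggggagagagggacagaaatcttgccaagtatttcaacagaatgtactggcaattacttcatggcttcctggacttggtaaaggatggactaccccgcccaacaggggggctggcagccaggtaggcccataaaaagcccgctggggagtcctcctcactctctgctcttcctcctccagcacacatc
The pattern TTGCNNAA was found before 5 of the 9 genes, against 9.56% of 32851 promoter stretches of the same length. It stands once before S100a9, Ltf, Lcn2 and Retnlg, with its match beginning 236, 75, 216 and 246 bases before the start. Before Ngp it stands at 138 and at 11 bases. The letters GAGGAA, a core recognised by the myeloid factor PU.1, were found on either strand before 4 of the 9 genes (S100a8, Ltf, Lcn2 and Csf3r), against 23.25% of all stretches. The NF-kB pattern, GGGA and CC with 4 free bases between them, was found on either strand before 1 gene, Csf3r, against 17.63%. No matches to different patterns overlapped before any of these genes. These are matches of letters, not measured binding.

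The members did not move as a set. S100a8, S100a9 and Il1b were higher in ATC than in normal pools, S100a8 and S100a9 were also higher in recurrent tumours, and Lcn2 was higher in PTC than in normal pools, where all 4 PTC arrays exceeded every other array. The means of Ngp, Camp and Csf3r lay near each other in all 4 groups, and each gene was highest on the same recurrent array. Smaller departures included Ngp at 6.45 on ATC array 5 and Csf3r at 6.07 on recurrent array 6. Ltf varied more within ATC and within recurrent tumours than between group means. A gene is called here where its adjusted p is under 0.05 in a limma model of the 4 groups fitted over all 12394 genes. The model holds 1 spread per gene for the 4 groups. Leaving out an array of another group can therefore move the p-value of a comparison and not its difference. Of the 8 members, 1 was called higher and 0 lower in PTC against normal, where 6.16% of all genes were called higher and 8.03% lower. In ATC against normal 4 were called higher, against 15.1% of all genes higher and 19.1% lower. In recurrent against normal 3 were called higher, against 14.5% of all genes higher and 19.3% lower. Between tumour types, 0 of 8 were called in ATC against PTC by limma (7.81% of all genes higher, 9.35% lower), with 2 at an unadjusted p under 0.05. In recurrent against ATC limma also called 0 (1.19% of all genes higher, 3.12% lower), with 0 at an unadjusted p under 0.05. In recurrent against PTC 1 was called lower, against 12.1% of all genes, and 0 higher, against 9.71%. The comparisons with normal share the same 6 pools.

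**Figure D1:**
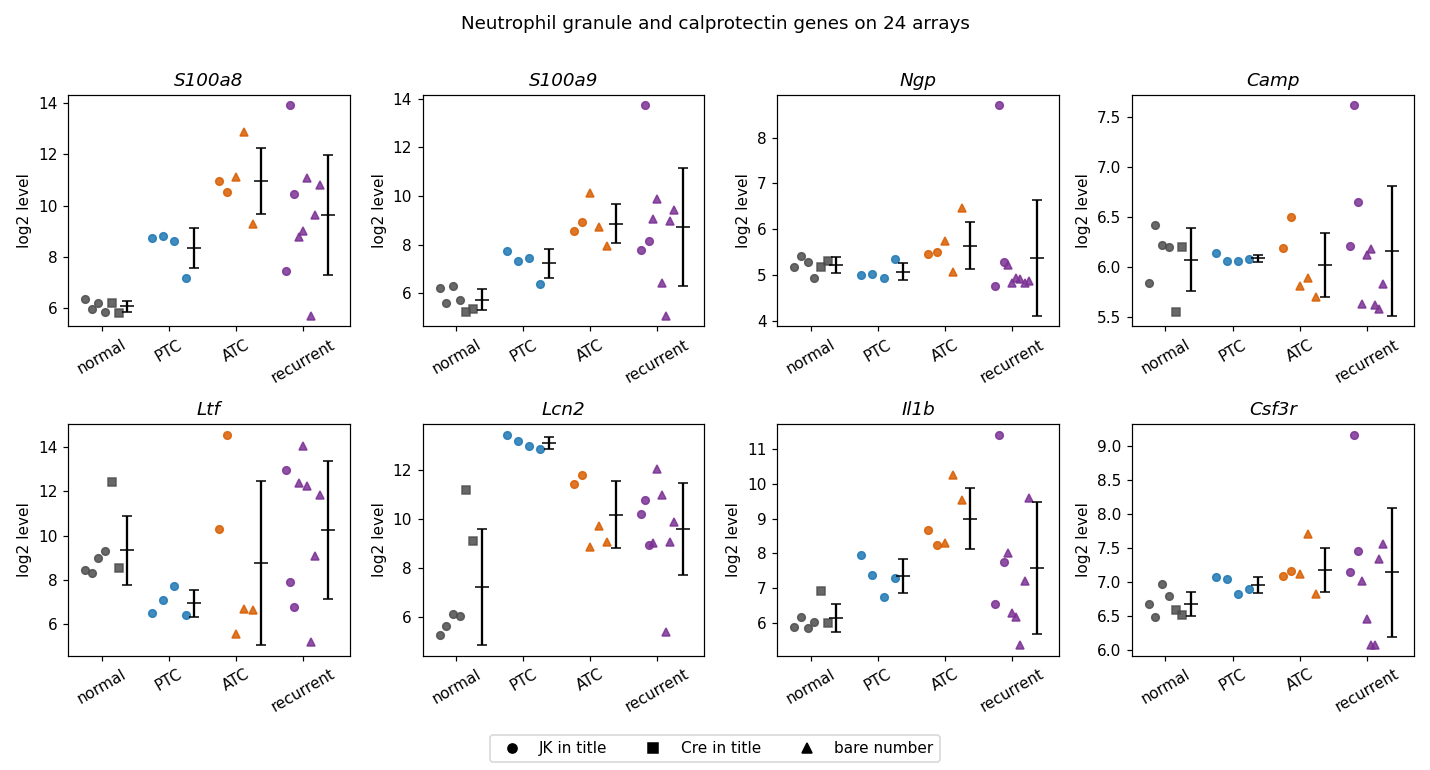
Log2 level of each measured member (vertical axes) on each array, by group (horizontal axes), with the mean and SD of each group as a black bar and the shape of a point giving the kind of title. Recurrent array 2 is the top point in 6 of 8 panels, Lcn2 in PTC spans only 12.87 to 13.43, and the 2 pools titled Cre are the upper points of normal Lcn2.

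S100a8 was at 5.82 at the lowest, 6.09 at the median and 6.34 at the highest over the 6 normal pools on the log2 scale. The 4 PTC arrays read 8.73, 8.81, 8.63 and 7.18, and the 5 ATC arrays 10.95, 10.53, 11.11, 12.86 and 9.29. The 9 recurrent arrays ran from 5.70 through a median of 9.65 to 13.91. The files hold no detection calls, so levels as low as those of the pools are not shown to stand above background, and differences are given on the log2 scale with no fold. All PTC and all ATC arrays lay above all normal pools, all ATC arrays lay above all PTC arrays, and 1 recurrent array, the seventh, lay below the lowest pool. S100a8 rose in ATC by 4.89 ± 0.93 (SE) on the log2 scale, with 5 of 5 arrays above all pools (limma adjusted p = 0.000299). It rose in recurrent tumours by 3.58 ± 0.81 (limma adjusted p = 0.00149). In PTC the difference was 2.27 ± 0.99 (limma adjusted p = 0.138), and with PTC and normal fitted alone its adjusted p in limma was 8.2e-05. That fit, also given for members below, called 5676 of all 12394 genes, against 1758 with the 4 groups on all 24 arrays. ATC exceeded PTC by 2.61 ± 1.03 (limma adjusted p = 0.0841). Leaving out recurrent array 2 or recurrent array 7, which are in neither group, kept 2.61 and changed the shared spread. It then passed (limma adjusted p = 0.028 and 0.0362).

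S100a9, the partner of S100a8, was at 5.22, 5.66 and 6.30 at the lowest, median and highest of the normal pools. PTC arrays read 7.75, 7.34, 7.45 and 6.38, ATC arrays 8.55, 8.93, 10.11, 8.74 and 7.92, and recurrent arrays ran from 5.07 through 8.95 to 13.72. The order of the groups was that of S100a8, again with no overlap between normal, PTC and ATC, and with recurrent array 2 at the top and recurrent array 7 at the bottom of all 24. S100a9 rose in ATC by 3.12 ± 0.92 (limma adjusted p = 0.011), and in recurrent tumours by 2.98 ± 0.80 (limma adjusted p = 0.00594). The PTC difference was 1.49 ± 0.98 (limma adjusted p = 0.371; 0.0013 with the 2 groups alone). Recurrent and ATC means were 8.72 and 8.85, a difference of -0.14 ± 0.85 that did not pass (limma adjusted p = 0.956). The S100a8 probe set carries the suffix of sets that can read more than 1 transcript, and the S100a9 set does not.

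The pair kept its direction with JK titles alone and among titles without JK. The arrays without JK set pools titled Cre against tumours with bare numbers, so title kind and tissue cannot be told apart there. With JK titles alone S100a8 was higher in ATC by 4.65 (limma adjusted p = 0.0122), and among titles without JK the difference was 5.08 (limma adjusted p = 0.0711). For S100a9 these ATC values were 2.78 and 3.63, neither of which passed (limma adjusted p = 0.113 and 0.135). In recurrent tumours JK titles gave 4.51 for S100a8 and 3.92 for S100a9 (limma adjusted p = 0.00548 and 0.0127), and the other titles 3.15 and 2.84 (limma adjusted p = 0.214 and 0.222). Only 3 recurrent arrays carry JK, and they include array 2, at 13.91 for S100a8 and 13.72 for S100a9. The rest of them read 7.43 and 10.45 for S100a8, and 7.76 and 8.16 for S100a9.

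Other genes of the S100 family and of the calprotectin pathway did not follow the pair as a block. Of 12 other S100 genes measured, 4 were called higher and 3 lower in ATC, and 3 higher and 5 lower in recurrent tumours. S100a4 and S100a6, neighbours of S100a8 on chromosome 3, rose in ATC by 2.84 and 3.25 and in recurrent tumours by 3.09 and 2.41, whereas S100a5, which lies between those neighbours, fell by 1.60 and 1.07. Ager, the receptor for advanced glycation end products that binds S100 proteins, fell from a mean of 12.24 in normal pools to 7.25 in ATC and 6.83 in recurrent tumours, differences of -4.98 ± 0.32 and -5.41 ± 0.28 (limma adjusted p = 3.62e-10 and 4.28e-12). Tlr4, the other receptor, differed by 0.65 in ATC and 0.42 in recurrent tumours and was not called. Cd14, a co-receptor of Tlr4, rose by 2.63 and 2.37.

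**Figure D2:**
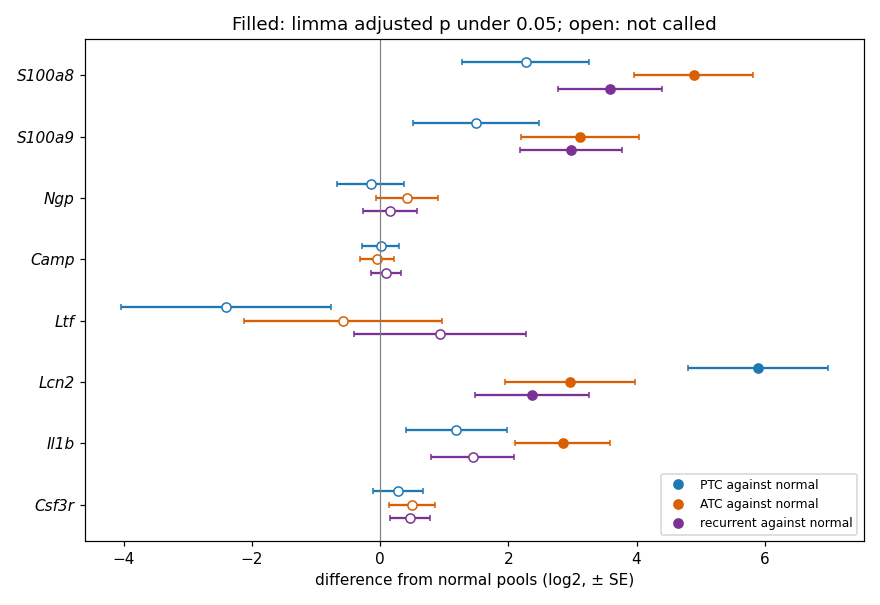
Difference from the normal pools (log2, horizontal axis) for each member (vertical axis) in PTC, ATC and recurrent tumours, with bars of 1 SE; filled points were called by limma. Lcn2 has the largest difference of all, 5.90 in PTC, while Ngp and Camp lie near 0 in the 3 comparisons.

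Lcn2 encodes lipocalin 2, a protein of specific granules and of inflamed epithelium that binds bacterial siderophores and so withholds iron. The 6 normal pools read 5.26, 5.60, 6.13, 6.01, 11.16 and 9.09, of which the last pair are the pools titled Cre. PTC arrays read 13.43, 13.17, 12.98 and 12.87, above all 20 other arrays. ATC arrays read 11.42, 11.81, 8.84, 9.71 and 9.06, and recurrent arrays ran from 5.39 through 9.89 to 12.02. The WT pools lay below all ATC arrays and below 8 of 9 recurrent arrays, and the Cre pools lay inside the range of both. Lcn2 rose in PTC by 5.90 ± 1.09 (limma adjusted p = 0.000728), and it was lower in recurrent tumours than in PTC by 3.53 ± 1.02 (limma adjusted p = 0.0151), with no overlap in either case. Against the WT pools alone the PTC difference was 7.36, and without normal pool 5 it was 6.70 (limma adjusted p = 3.12e-05 and 7.29e-05). ATC against PTC gave -2.95 ± 1.14, also with no overlap, which did not pass over all 24 arrays (limma adjusted p = 0.0777). It passed with WT pools alone, where it stayed at -2.95 and the shared spread changed (limma adjusted p = 0.03). With JK titles alone it was -1.5 and passed, and with title kind as a block it did not pass (limma adjusted p = 0.0307 and 0.138).

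The size of the Lcn2 difference in ATC and recurrent tumours depended on the pools used. The WT pools had a mean of 5.75 and the Cre pools of 10.13, beside means of 10.17 over all ATC arrays and 9.58 over all recurrent arrays. Over all pools it was higher by 2.96 ± 1.02 in ATC and by 2.37 ± 0.89 in recurrent tumours (limma adjusted p = 0.0285 and 0.0431). Against the WT pools alone the differences were 4.42 and 3.83 (limma adjusted p = 0.000939 and 0.00137), and among titles without JK they were -0.92 and -0.73 (limma adjusted p = 0.757 and 0.81). That last setting keeps the Cre pools and also drops the tumours with JK titles, so pools and tumours change together there. The ATC call was lost when any 1 of normal pools 1 to 4 or ATC array 1 or 2 was left out, with values of 2.55 to 2.74. With recurrent and normal fitted alone the recurrent call was lost (limma adjusted p = 0.0998), and leaving out single arrays took it to an adjusted p of 0.117 at most. The 2 JK-titled ATC arrays, at 11.42 and 11.81, were above the 3 with bare numbers.

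Ltf encodes lactoferrin, an iron-binding protein of specific granules and of glandular secretions. Normal pools read 8.45, 8.32, 9.01, 9.32, 12.41 and 8.52, and PTC arrays 6.49, 7.08, 7.73 and 6.43, below all of the pools. ATC arrays read 10.32, 14.56, 5.57, 6.69 and 6.63, a span wider than that between any group means. Recurrent arrays read 12.99, 7.91, 6.75, 12.38, 14.05, 12.25, 5.19, 9.07 and 11.85, with 5 of 9 above 11 and 1 at the lowest level of the 24. None of the 6 comparisons of Ltf passed over all 24 arrays: the difference in PTC was -2.41 ± 1.64 (limma adjusted p = 0.397; 0.0163 with the 2 groups alone) and recurrent tumours exceeded PTC by 3.34 ± 1.53 (limma adjusted p = 0.126). Without recurrent array 7 the last difference was 3.97, and with array weights 4.21, and both passed (limma adjusted p = 0.049 and 0.00336). With JK titles alone, which all PTC arrays carry, ATC exceeded PTC by 5.51 and passed (limma adjusted p = 0.0238). In ATC the sign turned with the titles, from -0.58 over all arrays to 3.66 with JK titles alone and -4.17 among the other titles (limma adjusted p = 0.81, 0.0766 and 0.28).

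Ngp, a neutrophil granule protein of the cystatin-like family, was at 4.92, 5.23 and 5.42 at the lowest, median and highest of the normal pools. PTC arrays read 4.99, 5.02, 4.92 and 5.34, and ATC arrays 5.45, 5.49, 5.74, 5.05 and 6.45. Of the recurrent arrays 8 lay between 4.75 and 5.29, and recurrent array 2 read 8.70. No comparison of Ngp passed over all 24 arrays, with differences from normal of -0.15 in PTC, 0.42 in ATC and 0.15 in recurrent tumours (limma adjusted p = 0.922, 0.547 and 0.813). Without recurrent array 2, Ngp was lower in recurrent tumours than in ATC by 0.68, which passed (limma adjusted p = 0.0149). ATC exceeded PTC by 0.57 with or without that array, which is in neither group. That difference passed only without it, where the shared spread was smaller (limma adjusted p = 0.0457, against 0.518). Levels of Ngp as low as those of the pools are not shown to stand above background, and the highest ATC value, 6.45, is from 1 array.

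Camp encodes cathelicidin, an antimicrobial peptide precursor of specific granules. Normal pools ran from 5.55 through 6.20 to 6.42, PTC arrays read 6.14, 6.06, 6.06 and 6.08, and ATC arrays 6.19, 6.50, 5.81, 5.89 and 5.70. Recurrent arrays ran from 5.58 through 6.12 to 7.62, the highest again being array 2. The groups overlapped throughout, and differences from normal were 0.01 ± 0.29, -0.05 ± 0.27 and 0.09 ± 0.24 in PTC, ATC and recurrent tumours (limma adjusted p = 0.99, 0.903 and 0.805). Levels of Camp this low and flat are likewise not shown to stand above background.

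Of 13 other specific and gelatinase granule genes, 8 were called higher in ATC and 0 lower, and 7 higher and 1 lower in recurrent tumours. They include Mmp9, the gelatinase itself, up by 2.71 and 2.86, Chil3, a chitinase-like protein shared with macrophages, up by 8.11 and 4.04, Slpi, an elastase inhibitor also made by epithelium, up by 3.52 and 4.03, and Adam8, up by 3.19 and 2.73. Mmp8, the collagenase of neutrophils, differed by 0.17 and 1.02 and was not called. Of 6 primary granule genes, Prtn3 was called higher in ATC by 1.17 and Elane lower by 0.46, and Mpo, at means of 4.85 in normal pools, 4.80 in PTC, 4.65 in ATC and 4.68 in recurrent tumours, was called in no comparison with normal.

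Il1b encodes interleukin-1 beta, a cytokine of activated neutrophils, monocytes and macrophages. Normal pools ran from 5.86 through 6.02 to 6.92, PTC arrays read 7.95, 7.37, 6.75 and 7.31, and ATC arrays 8.66, 8.23, 8.31, 10.25 and 9.54. Recurrent arrays read 6.54, 11.40, 7.75, 8.01, 6.29, 6.18, 5.37, 7.21 and 9.60. All ATC arrays were above all PTC and normal arrays, PTC overlapped normal through 1 array on each side, and recurrent tumours reached from below the lowest pool to above the highest ATC. Il1b rose in ATC by 2.85 ± 0.74 (limma adjusted p = 0.00449). Among JK titles that value was 2.45 and among the other titles 2.91, neither passing (limma adjusted p = 0.0687 and 0.14). In recurrent tumours the difference was 1.44 ± 0.64 (limma adjusted p = 0.0878), and without array 7 it was 1.72 and passed (limma adjusted p = 0.0335). Recurrent tumours were below ATC by 1.41 ± 0.68 (limma adjusted p = 0.281), and without recurrent array 2 by 1.88, which passed (limma adjusted p = 0.0281).

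The interleukin-1 pathway around Il1b had 18 genes measured, of which 6 were called higher and 2 lower in ATC, and 7 higher and 2 lower in recurrent tumours. Il1a, the other ligand and a neighbour of Il1b on chromosome 2, rose in ATC by 2.14 and differed by 0.29 in recurrent tumours, where it was not called. The decoy receptor Il1r2, which mature neutrophils carry, rose by 4.18 and 2.56, and the receptor antagonist Il1rn by 3.11 and 1.60. The signalling receptor Il1r1 fell by 0.75 in ATC and 1.27 in recurrent tumours. Ptgs2 and Il6, both induced by interleukin-1, rose in ATC by 6.16 and 4.31 and in recurrent tumours by 4.74 and 2.49. Nlrp3, the sensor of the inflammasome that matures Il1b, differed by 0.39 and 0.17 and was not called.

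Csf3r encodes the receptor for granulocyte colony-stimulating factor, on which neutrophil output depends. Normal pools ran from 6.49 through 6.64 to 6.97, PTC arrays read 7.07, 7.04, 6.82 and 6.89, and ATC arrays 7.08, 7.16, 7.11, 7.70 and 6.82. Recurrent arrays ran from 6.07 through 7.15 to 9.16, with array 2 well above the other 8, which ended at 7.55. Differences from normal were 0.28, 0.50 and 0.47 in PTC, ATC and recurrent tumours, and none passed (limma adjusted p = 0.747, 0.308 and 0.273). The PTC and ATC values passed when fitted with the normal pools alone (limma adjusted p = 0.0491 and 0.0143). Those fits called 5676 and 6317 of all genes, against 1758 and 4245 over all 24 arrays. The recurrent value passed with JK titles alone, at 1.19, and with array weights, at 0.49 (limma adjusted p = 0.0213 and 0.0363). The 3 recurrent arrays with JK include array 2, and the rest of them read 7.15 and 7.46. These settings called 5150 and 6244 of all genes, against 4194 over all 24 arrays without weights.

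**Figure D3:**
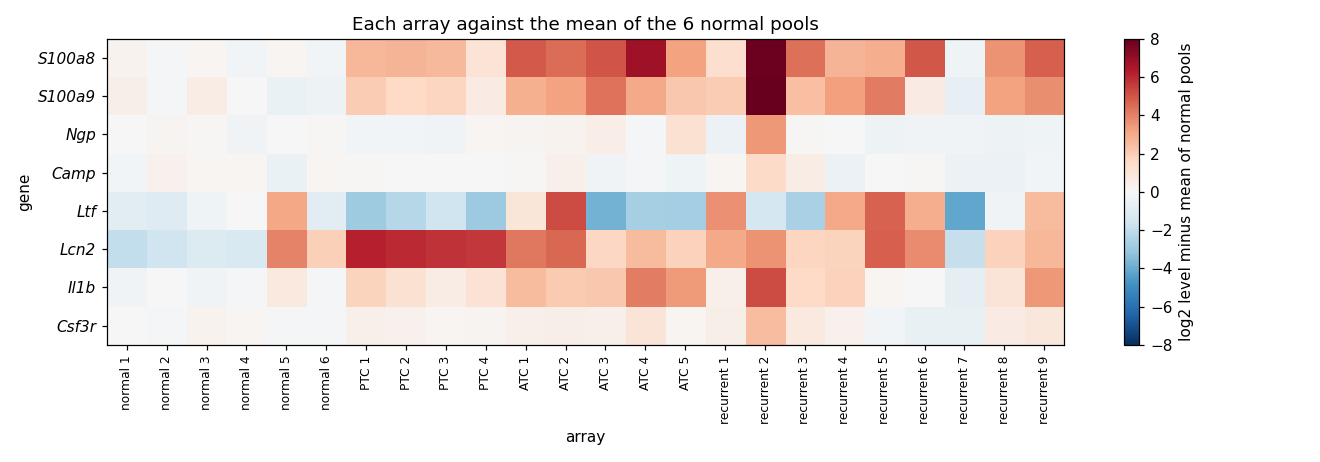
Log2 level of each member (vertical axis) on each of 24 arrays (horizontal axis) minus its mean over the normal pools; red is above that mean and blue below. Lcn2 is red across PTC where Ltf is blue, recurrent array 2 is red in all members but Ltf, and recurrent array 7 shows no clear rise in any.

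Among the recurrent tumours, array 2 stood apart. It was the highest of 9 in 6 of 8 members, 75.0%, where it was the highest in 15.85% of all genes. Its excess over the median of the other 8 arrays was 4.59 for S100a8, 5.17 for S100a9, 3.82 for Ngp, 1.64 for Camp, 4.52 for Il1b and 2.07 for Csf3r. Lcn2 was 1.31 above that median, and Ltf 4.14 below it. Several neutrophil genes outside the members were also the highest there: Stfa3 read 8.38 against a highest of 5.57 on the others, Cxcr2 7.86 against 6.63, Trem1 8.28 against 6.98, Padi4 9.33 against 7.50 and Gfi1, a factor of granulocyte maturation, 8.19 against 4.79. Others that neutrophils share with macrophages lay below the median of the other arrays, with differences of -3.67 for Lyz2, -1.95 for Cybb, -1.36 for Ncf1, -0.81 for Itgb2 and -0.68 for Itgam. The primary granule genes Mpo and Elane read 4.69 and 5.86, against medians of 4.57 and 5.27. The array was the highest in 9 of 19 neutrophil surface and cytosolic genes, with a median excess of 1.96. It was the highest in 4 of 13 other specific and gelatinase granule genes, with a median of 0.47, and in 7 of 15 eosinophil, basophil and mast cell genes, with a median of 0.49. It was the highest in 1 of 18 macrophage genes, with a median of -2.33. The chemoattractants Cxcl1 and Cxcl2 read 12.42 and 12.02, and the growth factors Csf2 and Csf3 10.09 and 8.80, each the highest of the 9. Braf read 11.14 there against 5.62 to 7.14 on the other 8, and Mki67, a proliferation marker, 10.26 against a median of 10.70.

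**Figure D4:**
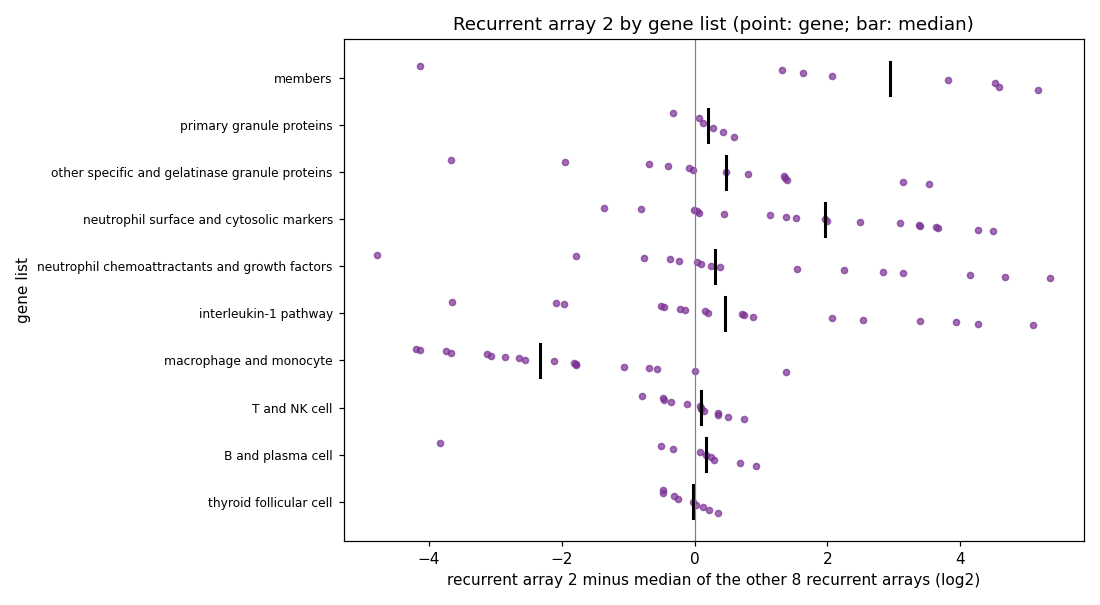
Recurrent array 2 minus the median of the other 8 recurrent arrays (log2, horizontal axis) for the genes of 10 lists (vertical axis); a point is a gene and a bar the median of its list. The members lie to the right with a median of 2.94 and 1 gene, Ltf, far to the left, and the macrophage genes lie to the left with a median of -2.33.

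Recurrent array 7 was the opposite case. It was the lowest of 9 in 5 of 8 members, 62.5%, against 13.66% of all genes, with S100a8 at 5.70, S100a9 at 5.07, Ltf at 5.19, Lcn2 at 5.39 and Il1b at 5.37. All 5 lay below the lowest normal pool except Lcn2, which lay above the lowest pool and below the second lowest. Relative to the median of the other 8 arrays, the median member differed there by -3.02 and the median macrophage gene by -1.40. Without array 2 the differences of S100a8 and S100a9 from normal in recurrent tumours were 3.05 and 2.35, the lowest over single arrays left out, and both still passed.

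Pairs of members differed in how far they moved together over the 9 recurrent arrays, given as Pearson r without a test. Il1b and Csf3r had r = 0.92 (Spearman rho 0.88), which was 0.81 without array 2 and 0.82 without the 2 arrays farthest from the median of Il1b. Ltf and Lcn2 had r = 0.73 (rho 0.67), and 0.86 without array 2, with 0.93 over the 6 arrays of bare-number titles, but 0.33 without the 2 arrays farthest from the median of Ltf. S100a8 and S100a9 had r = 0.75 (rho 0.45), which was 0.47 without array 2 and -0.20 without arrays 2 and 7. Ngp and Camp had r = 0.85 (rho 0.38), 0.26 without array 2 and -0.47 without arrays 2 and 3, so that this likeness rests on single arrays. Over all 28 pairs the median r was 0.68, with 18 above 0.5, and without array 2 it was 0.29, with 8 above 0.5. Over the 6 normal pools it was -0.04. All these values share the same arrays and normalization.

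**Figure D5:**
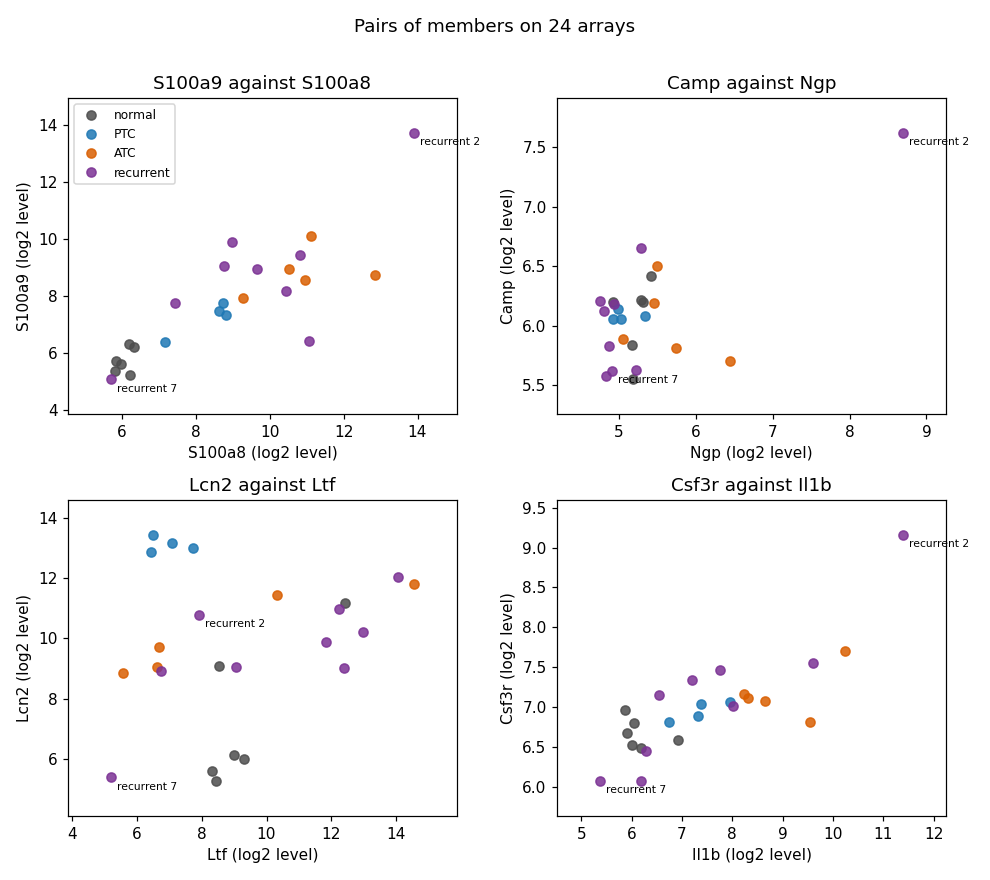
Log2 level of 1 member against another on 24 arrays, coloured by group, for 4 pairs, with recurrent arrays 2 and 7 named. Array 2 lies alone at the upper right for all pairs but Ltf and Lcn2, and the 4 PTC arrays are high in Lcn2 and low in Ltf.

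The genes most like S100a8 over the recurrent arrays were Cebpb, which encodes a C/EBP factor of myeloid and epithelial cells (r = 0.953, and 0.98 without array 2), Glmp, Tmem68, Maff and Hp1bp3, with r from 0.952 to 0.936. Over the normal pools Cebpb had r = -0.39 with S100a8. The most like Lcn2 were Tmbim1 (r = 0.939, and 0.94 without array 2), Slc22a23, Chmp1a, Fam107b and C77080. The most like Ngp were Mtmr14, Prl8a9, Tada3, Sema6d and Mcpt1, at r from 0.988 to 0.984, and their r was 0.68, 0.37, 0.47, 0.59 and -0.28 without array 2. Each was picked as the highest among all genes, so the values describe the picking.

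A list of transcription factors of granulocytes had 9 genes measured, of which 5 were called higher and 0 lower in ATC, and 6 higher and 1 lower in recurrent tumours. Cebpe, a factor of the C/EBP family on that list, had no probe set listed. Cebpb rose by 1.30 in ATC and 1.54 in recurrent tumours, Spi1, which encodes PU.1, by 1.71 and 1.28, and Nfkbiz, which acts with NF-kB on Lcn2, by 1.44 and 1.43. Cebpd and Cebpa rose in PTC by 2.13 and 1.53. Cebpa was the factor called lower in recurrent tumours, at -0.85, and differed by -0.87 in ATC, where it was not called. Runx1 had the largest differences of the list, at 3.97 in PTC, 4.24 in ATC and 3.30 in recurrent tumours. A list of 16 genes held chemoattractants and growth factors, and also receptors, the enzyme gene Lta4h and adhesion molecules. Of these, 4 were called higher in PTC, among them the receptor Ltb4r1 and the adhesion molecule Icam1. In ATC 7 were called higher, and in recurrent tumours 7 were higher and 1 lower, Icam1, at -1.58. Cxcl1, the main neutrophil chemokine of the mouse, rose by 3.13, 2.37 and 2.12 in the 3 groups, and Cxcl5 by 2.74 in ATC and 2.22 in recurrent tumours. Csf2 rose by 2.42 in PTC and 4.10 in ATC and differed by 0.25 in recurrent tumours, while Csf3, the ligand of Csf3r, differed by 0.81 in ATC and was not called. Slc22a17 and Lrp2, receptors for lipocalin 2, fell in ATC, from means of 8.88 and 9.11 in normal pools to 7.38 and 4.74.

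Markers of several cell types moved beside the members. Of 19 neutrophil surface and cytosolic genes 10 were called higher in ATC and 7 in recurrent tumours, where 1, G0s2, was lower. Fpr2, a formyl peptide receptor, was up by 3.83 in ATC, and Cxcr2, a defining receptor, was at 0.57 and 0.73 and not called. Ly6g, the antigen most used to mark mouse neutrophils, had no probe set listed. Of 18 macrophage genes 13 were called higher in ATC, 4 in recurrent tumours and 2 in PTC. Their mean over the list, relative to normal, lay between 1.61 and 2.22 on ATC arrays, 0.66 and 1.63 on PTC arrays, and -1.05 and 2.31 on recurrent arrays, and was -0.56 on recurrent array 2. Of 14 squamous and stress keratin genes 5 were called higher in ATC, among them Krt6a by 5.61 and Sprr1a by 5.40, and 1 lower, Trp63, a squamous lineage factor, by 3.24. In recurrent tumours 2 were higher and 1 lower. The mean of the list relative to normal lay between 0.85 and 2.53 on ATC arrays. On recurrent arrays it ran from -0.19 through a median of 0.58 to 4.28. Of 15 eosinophil, basophil and mast cell genes 6 were called higher and 1 lower in ATC, and 5 higher and 1 lower in recurrent tumours. Mcpt8, a basophil protease, rose by 7.01 in PTC and 6.14 in ATC, and Tpsab1, a mast cell tryptase, by 2.81 in ATC. T and NK cell genes had 0 of 13 called higher in ATC and 2 lower. The part of these cells in the levels of S100a8, S100a9, Lcn2 and Il1b was not tested. Of 9 thyroid genes 8 were called lower in ATC and 8 in recurrent tumours, as a check of the labelled tissue, with Tg, thyroglobulin, at a mean of 14.88 in normal pools. The loss was uneven, as Tg reached 14.18 on a recurrent array, against a median of 5.15 over the recurrent arrays other than array 2. The mean of the list relative to normal ran from -4.69 to -1.81 on recurrent arrays and from -4.45 to -2.20 on ATC arrays.

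Normal pool 5, titled Cre, was the highest pool for Ltf, Lcn2 and Il1b, at 12.41, 11.16 and 6.92, and was at 6.21 for S100a8 and 5.22 for S100a9, inside or below the range of the other pools. It was also the highest pool in 16 of 18 macrophage genes, 88.89%, against 25.54% of all genes, with Lyz2 at 13.70 against 10.50 to 11.14 on the others. The part of that difference in the values of Ltf, Lcn2 and Il1b was not tested.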

How the data were processed

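RNA from 24 samples was hybridised to Mouse430A_2 arrays. The 22690 probe sets were deposited as log2 levels, which the authors computed by RMA and Partek, per the submitters' processing notes, with versions not given in the sources used here. RMA draws arrays to a common distribution, so a shift of all genes one way would not be seen. Groups came from the tissue label, and replicate numbers follow record order and pair nothing. Each of 12394 genes was represented by its probe set of highest mean, with symbols updated through GRCm38.p6. A model of 4 group means on all 24 arrays was fitted with limma 3.58.1 (R 4.3.3), moderated tests were adjusted by Benjamini-Hochberg over all genes, and the step was tested on simulated data. The members and the 17 context lists (206 of 260 genes measured) were chosen with earlier results of these data known. Named genes are all members, up to 4 called genes a list with the largest differences, a fixed set of defining markers, and the 5 genes most like S100a8, Ngp and Lcn2. The text names a part of them, and the genes compared for recurrent array 2 were chosen after their values were seen. Alternatives were other groupings by title, normalizations, probe set rules, spread models, array weights and leaving out each array, and the correlation without recurrent array 2 was added after seeing the data. Python 3.11.15, pandas 2.3.3 and matplotlib 3.10.9 were used. The number of arrays limits the precision.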

Additional observations from a re-analysis of the deposited data

Results flagged for a closer look

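Of 32 sets of arrays (8 genes in 4 groups), 6 held an array with a gap to its neighbour above Dixon's limit, where chance gives about 1 in 20. They were Ngp at 8.70 and Csf3r at 9.16 on recurrent array 2, Lcn2 at 5.39 on recurrent array 7, Ltf at 12.41 and Il1b at 6.92 on normal pool 5, and S100a8 at 7.18 on PTC array 4. Both values on recurrent array 2 are above the rest of their group, as are both on normal pool 5, and the others are below.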

How the results depend on the processing

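The calls of S100a8 and S100a9 in ATC and recurrent tumours against normal, of Il1b in ATC against normal, and of Lcn2 in PTC against normal and recurrent against PTC passed with each array left out in turn, and the calls of Lcn2 in ATC and in recurrent tumours did not. Each member has 1 probe set, so rules on probe sets moved no member. Of the members' differences under an alternative, 1577 kept direction and side of the threshold, 55 turned sign, 39 came to pass and 27 ceased to. The cause of the changes was not tested. The title-kind block kept the counts of calls. Titles without JK hold no PTC, so comparisons with PTC were not run there. No paired analysis was possible because replicate numbers only follow the order of the records.

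Counts of members called moved by over 1.5 times as follows. Smaller moves, in ATC to between 3 and 5 and in recurrent tumours to between 2 and 4 against normal, are not listed singly. With the 2 groups alone they were 6 in PTC against normal and 4 in ATC against PTC. In that setting 5676 and 4587 of all 12394 genes were called, against 1758 and 2127 with the 4 groups on all 24 arrays. With JK titles alone the members called were 2 in ATC and 5 in recurrent tumours against normal, 2 in ATC against PTC and 1 in recurrent against ATC. With those titles 3921, 5150, 1960 and 933 of all genes were called in turn. The 3 recurrent arrays with JK include array 2. With the other titles the members called by limma were 0 in ATC and 0 in recurrent against normal. There 759 and 503 of all genes were called. WT pools alone gave 1 member in ATC against PTC, where 1957 of all genes were called. Array weights gave 5 members in PTC against normal, 5 in recurrent against normal, 5 in ATC against PTC and 3 in recurrent against PTC. With these weights 6370, 6244, 6318 and 5574 of all genes were called in turn. Leaving out single arrays gave 0 to 2 members in ATC against PTC, 0 to 2 in recurrent against ATC and 1 to 2 in recurrent against PTC. The genes called then ran from 1345 to 2686, from 286 to 844 and from 1757 to 3393 in turn.

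Signs turned as follows, on the log2 scale. In PTC against normal, Camp was -0.08 with the block, JK titles or WT pools, -0.06 after quantile normalization and -0.03 with array weights, and ran from -0.09 to 0.08 over arrays left out. In ATC against normal, Camp was 0.35 with the block and 0.18 with JK titles, and ran from -0.17 to 0.03. Ltf was 0.77 with the block and 3.66 with JK titles, and ran from -2.04 to 0.21, and Lcn2 was -0.92 with the other titles. In recurrent against normal, Ngp was -0.31 with the other titles and -0.15 with array weights, and ran from -0.26 to 0.23. Camp was -0.05 with the other titles, -0.01 with WT pools and -0.13 with array weights, and ran from -0.09 to 0.16, and Lcn2 was -0.73 with the other titles. In ATC against PTC, Camp was 0.43 with the block, 0.26 with JK titles and 0.04 after quantile normalization, and ran from -0.18 to 0.01. In recurrent against ATC, JK titles gave 1.14 for S100a9, 0.78 for Ngp, -3.22 for Ltf, 0.12 for Il1b and 0.80 for Csf3r, and the other titles 0.19 for Lcn2. Csf3r was 0.01 with the block, 0.03 after quantile normalization, 0.00 with arrays centred and 0.13 with array weights, and ran from -0.29 to 0.10. S100a9 ran from -0.76 to 0.32 and Camp from -0.04 to 0.26. In recurrent against PTC, array weights gave -0.01 for Ngp and -0.10 for Camp. Over arrays left out, Ngp ran from -0.12 to 0.39, Camp from -0.11 to 0.15, Il1b from -0.23 to 0.53 and Csf3r from -0.06 to 0.32. The r of S100a8 and S100a9 was -0.20 without the 2 farthest arrays. That of Ngp and Camp was -0.47 so, and -0.32 over bare-number titles.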
